A study of Saccharomyces cerevisiae with 2 samples.

Results

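The nucleotides described here are the crosslinks of Dbp2p that lie 1 to 200 nt before the start codon of a nuclear protein-coding gene of budding yeast, Saccharomyces cerevisiae. They were chosen by position alone, on the strand of the gene, from the lists of crosslinked positions of 2 iCLIP libraries. Replicate 1 held 393 such positions among 8666 listed positions, and replicate 2 held 766 among 18088. Together these are 1147 distinct nucleotides, of which 12 were listed in both replicates. The positions of 5 gene names were left out by the same rule. The count of positions just inside and just outside the window's edge was low, with 4 and 5 positions at 191 to 200 nt and 4 and 4 at 201 to 210 nt in replicates 1 and 2.

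Both libraries came from 1 strain, BTY140, a MATa strain with his3Δ1, leu2Δ0, met15Δ0 and ura3Δ0 in which DBP2 carries an HTBH (histidine and biotin) tag marked with kanMX6. Cells were grown in YPD at 30 °C to an OD600 of about 1.0 and irradiated with UV light before harvest. The 2 libraries form 1 group, the design text speaks of a biological replicate, and every SD below measures only how these samples differ, which may be technical. Untagged, mock and input libraries and RNA abundance were not analysed here, and unspecific recovery at a position was therefore not measured. All cells carry the tag on the protein that was pulled down, and no other strain or treatment is compared.

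Dbp2p is a DEAD-box RNA helicase, an enzyme that uses ATP to remodel RNA duplexes and RNA-protein complexes. In iCLIP, UV light joins a protein to RNA that it touches, and the end of the truncated cDNA marks the joined nucleotide. The leader of a messenger RNA, which lies before the start codon, is where the small ribosomal subunit loads and scans. Yeast leaders are mostly short and rich in adenosine, and a few hold upstream reading frames or signals for early termination of transcription. Transcript starts were not used here, so a position before a start codon may lie in a leader, in an intron of the leader or in another transcript from the same strand.

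The deposited value of a position is the fraction of its gene's signal found there, and the fractions of a gene sum to 1. The number of reads behind a position, a gene or a library is therefore unknown. Positions were counted equally, and the fractions were used only within a gene, where they are given as a percentage of the gene's signal. Bases are those deposited for each position on the gene's strand, with T standing for U in the RNA. Coordinates are 1-based in sacCer3. Intervals are 95% Wilson intervals that cover counting error only.

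Runs of consecutive listed nucleotides give the deposited bases in order. Whether each nucleotide of a run is a separate crosslink was not tested. The 9 longest runs, of 5 or 6 nt when the lists of the replicates are joined, are printed 5′ to 3′. The capital marks the nucleotide of the run with the largest fraction in either replicate, and a stronger position can lie outside the run.
PCL5 (chrVIII:236953-236957, plus strand, 51 to 47 nt before the start codon): ttTtt
HRP1 (chrXV:87685-87690, plus strand, 159 to 154 nt before the start codon): Aaaaag
DFP4 (chrVIII:13554-13559, plus strand, 11 to 6 nt before the start codon): Ccgcta
PGK1 (chrIII:137706-137711, plus strand, 40 to 35 nt before the start codon): Aaggaa
RPP2A (chrXV:254289-254294, plus strand, 8 to 3 nt before the start codon): Atacaa
TEF2 (chrII:477657-477662, plus strand, 14 to 9 nt before the start codon): Ataatt
CTR1 (chrXVI:786036-786040, plus strand, 172 to 168 nt before the start codon): agatA
GLN4 (chrXV:649285-649289, plus strand, 18 to 14 nt before the start codon): Taacg
MSN2 (chrXIII:346574-346578, minus strand, 61 to 57 nt before the start codon): tttGc
Of these runs, that of PCL5 had nucleotides from both replicates, 4 in each, and the other 8 came from replicate 2 alone. In HRP1, DFP4, PGK1, RPP2A, TEF2 and GLN4 the strongest nucleotide was the first of the run.

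Upstream positions made up a small part of the protein-coding crosslinks. They were 6.30% of the 6238 positions under protein-coding names in replicate 1 and 4.68% of 16375 in replicate 2, or 5.49% ± 1.15 (SD, n = 2). Averaged over the listed genes, 6.12% and 4.63% of a gene's signal lay upstream. Per kilobase of window in listed genes there were 0.728 positions in replicate 1 and 1.01 in replicate 2. Reading frames, with any intron included, held 1.00 and 2.15, so the upstream density was 0.724 and 0.470 times theirs. The equal window past the stop codon held 1.77 and 2.01 positions per kilobase. Only 4 members in replicate 1 and 1 in replicate 2 lay inside another annotated gene. They were upstream of PHD1, SOM1, TUB3 and YGR026W, and in TUB3, an alpha-tubulin gene, the other gene was an antisense RNA.

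Crosslinks crowded toward the start codon. The median distance was 45 nt in replicate 1 and 38 nt in replicate 2, with quartiles of 21 and 87 nt and of 14 and 79 nt. The 50 nt next to the start codon held 221 of 393 positions, or 56.2% (95% interval 51.3 to 61.1), and 449 of 766, or 58.6% (55.1 to 62.1), where an even spread would give 25%. The farthest 50 nt held 9.67% and 8.88%. The replicates differed within the first 10 nt, which held 11.5% of members in replicate 1 (8.67 to 14.98) and 20.1% in replicate 2 (17.4 to 23.1). Those intervals do not overlap, but positions of 1 cluster share a source and no test was made of the difference. At 3 nt before the start codon, the listed base was A in 6 of 9 positions in replicate 1 and in 16 of 18 in replicate 2.

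**Figure D1:**
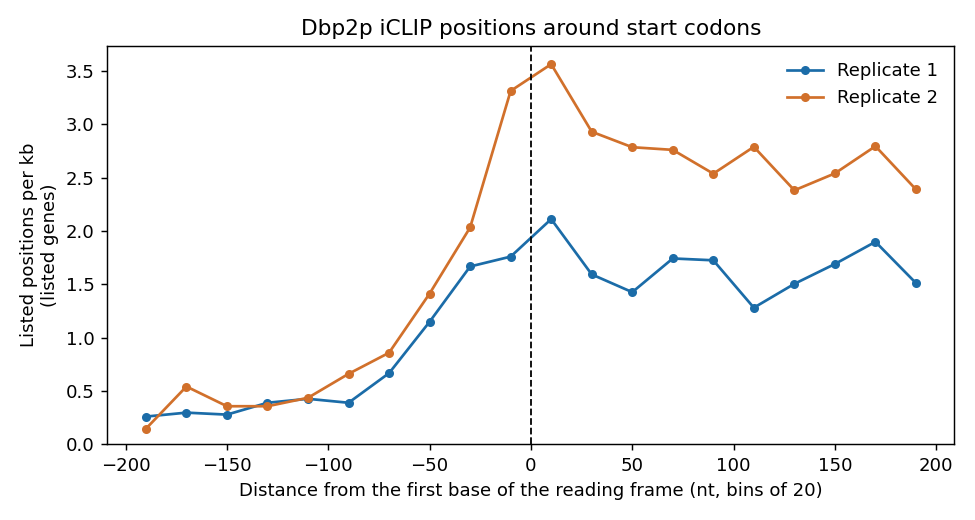
Listed positions per kilobase of listed genes (vertical axis) in bins of 20 nt by distance from the first base of the reading frame (horizontal axis), with a line for each replicate. The last bin before the start codon reached 1.76 in replicate 1 and 3.31 in replicate 2, and the bin 181 to 200 nt upstream held 0.259 and 0.145.

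The density rose toward the start codon and ran into the reading frame without a gap. It was 0.389 and 0.660 positions per kilobase at 81 to 100 nt upstream, 1.15 and 1.41 at 41 to 60 nt, and 1.76 and 3.31 at 1 to 20 nt. The first 20 nt of the reading frame held 2.11 and 3.56. Beyond them, the bins up to 200 nt inside the frame ranged from 1.28 to 1.90 in replicate 1 and from 2.38 to 2.93 in replicate 2. With a window of 100 nt the upstream density came to 1.12 and 0.769 times that of reading frames, so whether it was above or below theirs depended on the window and on the replicate. Transcripts that start inside the window leave part of it without RNA, and their share was not measured here.

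Adenosine was the most frequent listed base upstream. It stood at 200 of 393 positions in replicate 1, or 50.9% (46.0 to 55.8), and at 363 of 766 in replicate 2, or 47.4% (43.9 to 50.9). T followed with 34.1% (29.6 to 38.9) and 26.9% (23.9 to 30.1). C took 7.12% and 13.7%, and G took 7.89% and 12.01%. The base composition of the windows themselves was not analysed here, so a share of listed bases is not a preference of the protein.

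T was less frequent upstream of start codons than in the 200 nt past stop codons, in both replicates. The shares were 34.1% against 43.8% in replicate 1 and 26.9% against 37.3% in replicate 2 (adjusted p = 0.00266 and 5.29e-06 over 8 tests, Fisher's exact test, 2-sided here and below). The log2 odds ratio was -0.59 and -0.69, and with 1 position per gene and region it was -0.43 and -0.52 (Fisher's exact test, unadjusted p = 0.0445 and 0.00834). Against the same downstream positions A was more frequent upstream, with 50.9% against 41.7% and 47.4% against 40.6% (adjusted p = 0.00407 and 0.00400, Fisher's exact test). With 1 position per gene and region the difference in A missed the threshold in replicate 2 (log2 odds ratios 0.46 and 0.32, Fisher's exact test, unadjusted p = 0.0219 and 0.0833). The comparisons with downstream positions and those of A were added after the data were seen.

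Against reading frame positions neither base passed in both replicates. T was higher upstream in replicate 1, with 34.1% against 28.4% (adjusted p = 0.0271, Fisher's exact test), and stood at 26.9% against 28.3% in replicate 2 (adjusted p = 0.468, Fisher's exact test). A was 50.9% against 50.5% in replicate 1 (adjusted p = 0.916, Fisher's exact test) and 47.4% against 39.1% in replicate 2 (adjusted p = 2.90e-05, Fisher's exact test). With 1 position per gene and region neither base passed in either replicate. The log2 odds ratios were then 0.24 and 0.032 for T (Fisher's exact test, unadjusted p = 0.207 and 0.860). For A they were 0.087 and 0.20 (Fisher's exact test, unadjusted p = 0.628 and 0.190). In replicate 2 the share of A changed with distance, from 55.5% (50.8 to 59.99) at 1 to 50 nt to 38.8% (31.9 to 46.1) at 51 to 100 nt and 32.4% (25.2 to 40.5) at 101 to 200 nt. In replicate 1 the same bins held 51.1%, 56.6% and 44.9% A, with intervals that overlap. Positions of 1 cluster share a source, and no test was made of the differences between bins.

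**Figure D2:**
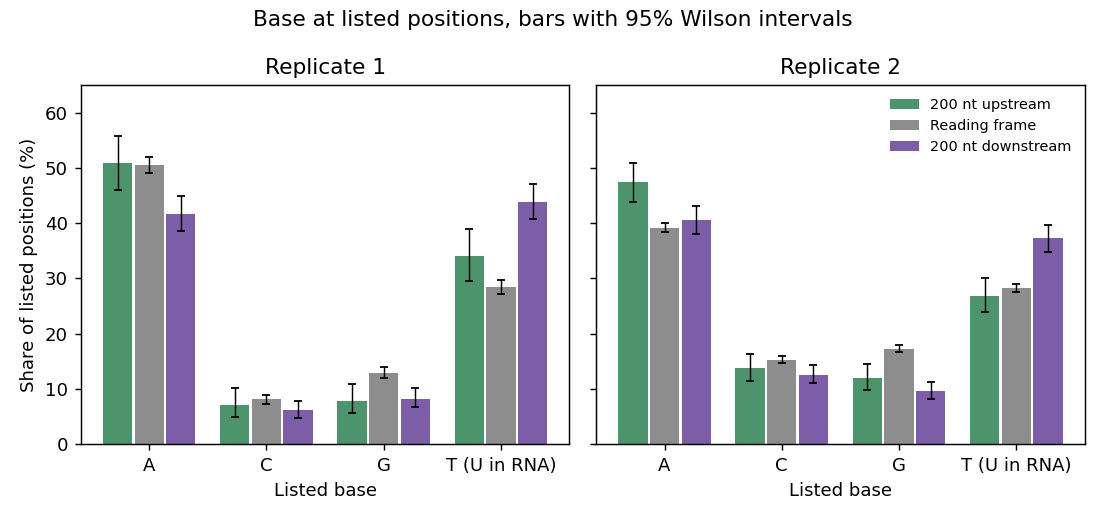
Share of listed positions (vertical axis, percent) with each base (horizontal axis) in the 200 nt upstream of start codons, in reading frames and in the 200 nt downstream of stop codons, for each replicate. Bars carry 95% Wilson intervals, and T is lower upstream (34.1% and 26.9%) than downstream (43.8% and 37.3%) in both replicates.

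Most members stood alone in replicate 1 and in clusters in replicate 2. Another position of the same gene lay within 5 nt of 74 of 393 members in replicate 1, or 18.8%, and of 425 of 766 in replicate 2, or 55.5%. Reading frame positions had such a neighbour in 12.1% and 52.7% of cases. Counting positions within 5 nt as 1 left 354 clusters in replicate 1 and 451 in replicate 2, or 1.11 and 1.70 positions per cluster. Replicate 2 had 67 runs of at least 3 consecutive upstream nucleotides, and replicate 1 had 2. Runs of exactly 3 nt (48) outnumbered runs of exactly 2 nt (30) in replicate 2, while replicate 1 had 1 and 13. Genes with at least 2 members numbered 60 and 119, and in 24 and 80 of them all members fell within 10 nt.

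The clusters of replicate 2 had a regular layout. The layout was measured around each nucleotide that was stronger than every other listed position within 10 nt and had at least 1 such neighbour. Of 94 such upstream nucleotides in replicate 2, 81 had a weaker position 3 to 5 nt toward the start codon, or 86.2% (77.8 to 91.7), and 42 had all of these 3 offsets listed. Of all their neighbours, 62.6% lay 3 to 5 nt on the 3′ side and 3.31% lay 3 to 5 nt on the 5′ side. Replicate 1 had 15 such nucleotides, and 5 of them had a position 3 to 5 nt on the 3′ side, or 33.3% (15.2 to 58.3). The layout was not limited to leaders. In reading frames 88.3% of 1737 such nucleotides in replicate 2 had a position 3 to 5 nt on the 3′ side, against 29.3% of 147 in replicate 1. Downstream of stop codons the shares were 77.1% of 210 and 34.5% of 58.

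ECM33, which encodes a cell wall protein, shows the layout in single nucleotides. In replicate 2, position 167 nt before its start codon held 20.2% of the gene's signal, and the nucleotides at 164, 163 and 162 nt held 2.52% each. The position at 12 nt held 20.2% as well, followed by 9, 8 and 7 nt with 5.04%, 2.52% and 5.88%. In replicate 1 ECM33 had 1 upstream position, at 57 nt. Both clusters of ECM33 thus had a strong nucleotide and 3 weaker ones 3 to 5 nt closer to the start codon. UTH1, a SUN family gene, had 19.1% at 119 nt and 3.48%, 7.83% and 4.35% at 116, 115 and 114 nt in replicate 2. RPS31, the gene of a ribosomal protein made as a fusion to ubiquitin, had 18.4% at 57 nt and 1.60%, 3.20% and 5.60% at 54, 53 and 52 nt. The number of positions in a gene in replicate 2 therefore counts such groups several times, and the part of this layout in the replicate difference was not tested.

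**Figure D3:**
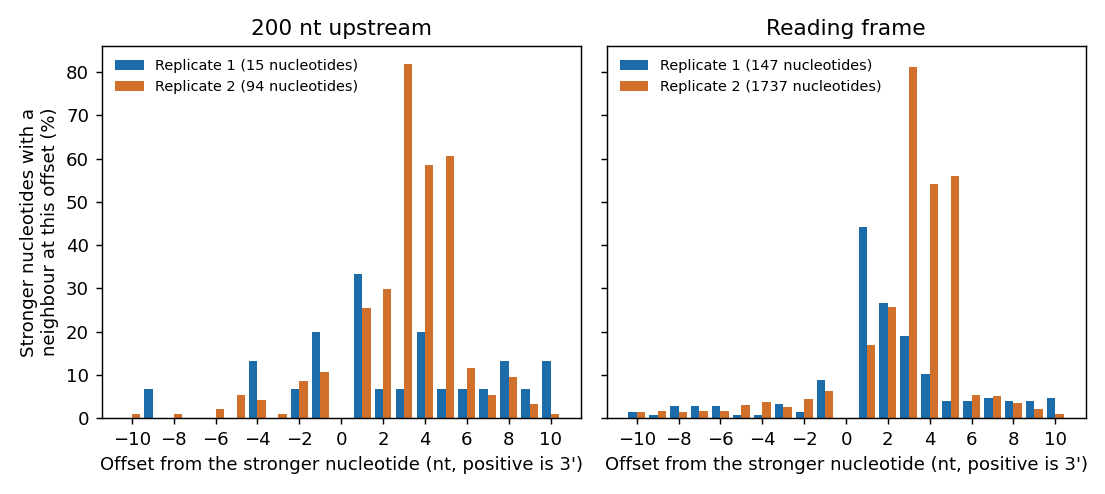
Percentage of locally strongest nucleotides (vertical axis) that have a weaker listed position at each offset (horizontal axis, nt, positive toward the 3′ end), upstream of start codons and in reading frames, for each replicate. In replicate 2 the bars peak at 3 to 5 nt, where 81 of 94 upstream nucleotides have a neighbour, compared with 5 of 15 in replicate 1.

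Few members were listed at the same nucleotide in both replicates. The 12 shared nucleotides were 3.05% of the members in replicate 1 and 1.57% in replicate 2. In reading frames 90 nucleotides were shared, 1.90% and 0.649% of their lists. The difference passed in replicate 2 and not in replicate 1 (log2 odds ratios 1.34 and 0.75, adjusted p = 0.0220 and 0.129 by Fisher's exact test), so it was not called. Allowing 5 nt between positions, 35 members of replicate 1 (8.91%) and 64 of replicate 2 (8.36%) had a partner, in 22 and 24 genes. That comparison with reading frames passed in both replicates (Fisher's exact test, unadjusted p = 0.0282 and 6.45e-10). The replicates view 1 overlap from each side, so a pass in both is not 2 independent results. Members of 1 cluster were also counted singly, so these p-values can be too small. With positions within 5 nt counted as 1 the direction turned, on 2 shared nucleotides (log2 odds ratio -0.39 on average). The shared nucleotides lay in 6 genes, PCL5, CCW12, RPL3, RMI1, TDH3 and PIB1.

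PCL5, which encodes a cyclin of the Pho85 kinase that directs the degradation of the activator Gcn4, had 3 upstream nucleotides listed in both replicates, as many as CCW12, and the most members in the replicate with fewer (chromosome VIII, reading frame 237004 to 237693). All 6 of its positions in replicate 1 were upstream, and 10 of 15 in replicate 2, with 100% and 75.7% of its signal. The T run printed above was listed at 51, 50 and 49 nt in both replicates. The nucleotide at 51 nt held 7.69% of the signal in replicate 1 and 41.7% in replicate 2. At 50 nt the shares were 23.1% and 22.9%. At 49 nt they were 42.3% and 6.25%. The strongest nucleotide therefore moved by 2 nt between the replicates within the same T run. The other members of PCL5 held 0.694% each in replicate 2. In replicate 1 they held 11.5% at 40 nt, 11.5% at 48 nt and 3.85% at 53 nt.

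CCW12, a mannoprotein of the cell wall, had 4 of 12 positions upstream in replicate 1 and 18 of 64 in replicate 2, with 30.0% and 29.2% of its signal (chromosome XII, reading frame 369697 to 370098, minus strand). Of its 18 members in replicate 2, 17 lay between 19 and 43 nt before the start codon, and so did 3 of the 4 in replicate 1, the other being at 17 nt. The shared nucleotides were a G at 27 nt with 10% and 5.02%, a T at 36 nt with 5% and 1.49%, and an A at 43 nt with 10% and 2.79%. The strongest member in replicate 2 was a T at 30 nt with 7.81%. The share of signal upstream was close in the replicates although the number of positions differed by 14.

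RMI1, a subunit of the complex of the helicase Sgs1 and the topoisomerase Top3, had 2 of 2 and 3 of 5 positions upstream, all of them A (chromosome XVI, reading frame 503517 to 504242). Those at 135 and 133 nt were listed in both replicates, with 50% and 50% of the signal in replicate 1 and 12.5% and 50% in replicate 2, where the remaining one, at 134 nt, held 12.5%. PIB1, a ubiquitin ligase of endosomal membranes, had a T at 51 nt with 42.9% in replicate 1, and in replicate 2 this was its only listed position. RPL3, a protein of the large ribosomal subunit, shared an A at 22 nt with 11.5% and 1.51% and a T at 18 nt with 3.85% and 0.503%. TDH3, the main glyceraldehyde-3-phosphate dehydrogenase, shared an A at 39 nt with 7.69% and 5.04%. In TDH3 that nucleotide was the strongest upstream one in each replicate. Genes with few listed positions, such as RMI1 and PIB1, have large shares because the fractions of a gene sum to 1.

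**Figure D4:**
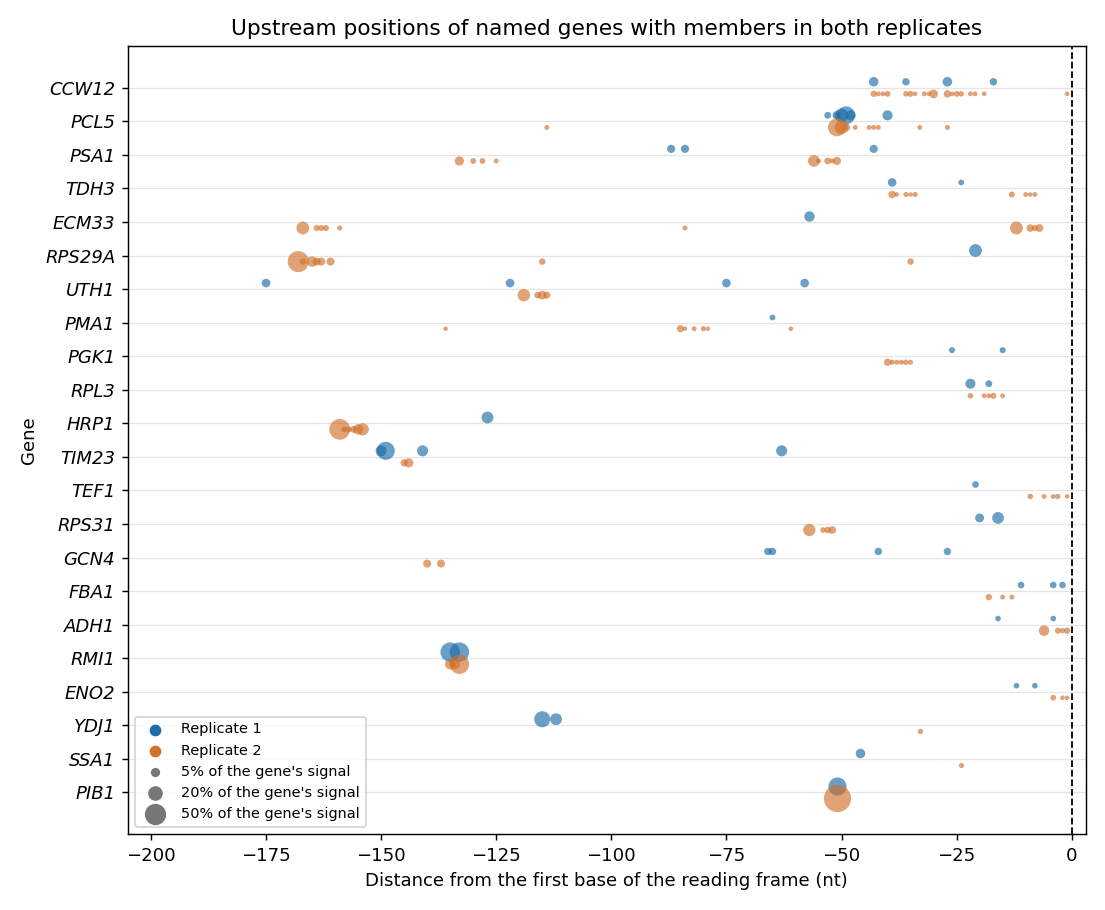
Upstream positions of the named genes with members in both replicates, by distance from the first base of the reading frame (horizontal axis, nt), 1 row per gene, with dot area growing with the percentage of the gene's signal. PCL5, RMI1 and PIB1 have their largest dots within 2 nt of each other in the replicates, while those of RPS29A and HRP1 lie apart.

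Upstream crosslinks were found in few genes, and most of these genes had them in 1 replicate only. Of 5999 annotated nuclear protein-coding genes, 309 had a member in replicate 1, which is 5.15%, and 406 in replicate 2, which is 6.77%. Both replicates had a member in 65 genes, which is 1.08% of all, 21.04% of the genes of replicate 1 and 16.0% of those of replicate 2. Most genes had a single member, 249 of 309 and 287 of 406, and 15 and 84 had at least 3. The strongest position of the whole gene lay upstream in 173 of 2700 listed genes in replicate 1 and in 190 of 3788 in replicate 2. For comparison, 6.30% and 4.68% of all protein-coding positions were upstream. Ties between equal fractions went to the lower coordinate, which is the more upstream one on the plus strand only. The whole signal lay upstream in 88 and 71 of these listed genes, and no gene had this in both replicates. In 74 and 58 of them a single position held the whole signal. The median member held 33.3% of its gene's signal in replicate 1 and 8.93% in replicate 2, close to the 33.3% and 10% of reading frame positions.

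Genes that repeated between the replicates often had their members at other nucleotides. UTH1 had 4 members in each replicate with 30.8% and 34.8% of its signal. They were spread over 58, 75, 122 and 175 nt in replicate 1 and grouped at 114 to 119 nt in replicate 2. PSA1, which makes GDP-mannose for glycosylation, had 3 of 15 and 9 of 21 positions upstream. Its members lay at 43, 84 and 87 nt in replicate 1 and at 51 to 56 and 125 to 133 nt in replicate 2. TIM23, a channel of the mitochondrial inner membrane, had 4 of 5 and 2 of 8 positions upstream, with 85.7% and 13.6% of its signal. Its strongest members were at 149 nt in replicate 1 and at 144 nt in replicate 2. RPS31 had 25% and 28.8% of its signal upstream, at 16 and 20 nt in replicate 1 and at 52 to 57 nt in replicate 2. The upstream shares of UTH1 and RPS31 were alike in the replicates while no nucleotide was shared.

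Messages of glycolysis and fermentation had upstream positions most often among the gene lists examined. Of 18 genes, 9 had a member in replicate 1 and 14 in replicate 2, or 50% and 77.8%, and 8 in both, against 5.15%, 6.77% and 1.08% of all genes. All 18 were listed in both replicates, and among listed genes alone 11.4% and 10.7% had a member. These genes are crosslinked widely. Upstream positions were only 4.27% of their 351 positions in replicate 1, below the 6.30% of all protein-coding positions. In replicate 2 upstream positions were 4.61% of 1019, near the 4.68% of all protein-coding positions. PGK1, phosphoglycerate kinase, had 2 of 25 and 6 of 98 positions upstream. FBA1, fructose-bisphosphate aldolase, had 3 of 25 and 3 of 73. ADH1, alcohol dehydrogenase, had 2 of 35 and 4 of 49, with 3.51% and 19.2% of its signal. In ADH1 a T at 6 nt alone held 12.8% in replicate 2, followed by 3, 2 and 1 nt. ENO2, enolase, had 2 of 35 and 3 of 101, all within 12 nt of the start codon. TDH3 had 2 of 36 and 9 of 130. TDH3 and ENO2 have near-identical copies, and how reads that match both copies were assigned is unknown.

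The cell wall and plasma membrane list had the highest upstream share of positions among the lists with over 100 positions in each replicate. It held 13 of 152 positions in replicate 1, or 8.55%, and 31 of 397 in replicate 2, or 7.81%. Of its 20 genes 8 and 4 had a member, or 40% and 20%, beside 5.15% and 6.77% of all genes. All 20 had listed positions in both replicates, and among all listed genes 11.4% and 10.7% had a member. CCW12 gave 18 of the 31 positions in replicate 2, so the share of the list there rests largely on 1 gene. PMA1, the proton pump of the plasma membrane, had 1 of 31 and 7 of 86 positions upstream. All 8 of these PMA1 members were A, at 65 nt in replicate 1 and at 61 to 136 nt in replicate 2. CWP2, another mannoprotein, had 1 of 3 and 5 of 22, with 33.3% and 33.0% of its signal. PDR5, a drug efflux pump, had 3 of 11 and 0 of 21.

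Ribosomal protein genes had a share of positions upstream below that of all protein-coding positions in replicate 1 and above it in replicate 2. Of 137 genes, 22 and 26 had a member, or 16.1% and 18.98%, beside 5.15% and 6.77% of all genes. Listed positions were found in 132 and 131 of them, and among all listed genes 11.4% and 10.7% had a member. Both replicates had a member in 6 of the 137, or 4.38%, beside 1.08% of all genes. Of the positions of this list, 5.37% and 5.81% lay upstream, beside 6.30% and 4.68% of all protein-coding positions. RPS29A, of the small subunit, had 1 of 5 positions upstream in replicate 1, at 21 nt with 20% of its signal. In replicate 2 all 8 of its positions were upstream, led by an A at 168 nt with 59.4%. RPS12 had 4 of 8 and 1 of 5. RPL32, of the large subunit, had 4 of 12 and 0 of 12, and all 4 were T. RPP2A, of the ribosomal stalk, had 0 of 3 and 6 of 15. Many ribosomal protein genes have introns and a duplicate copy, and introns count as reading frame here.

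**Figure D5:**
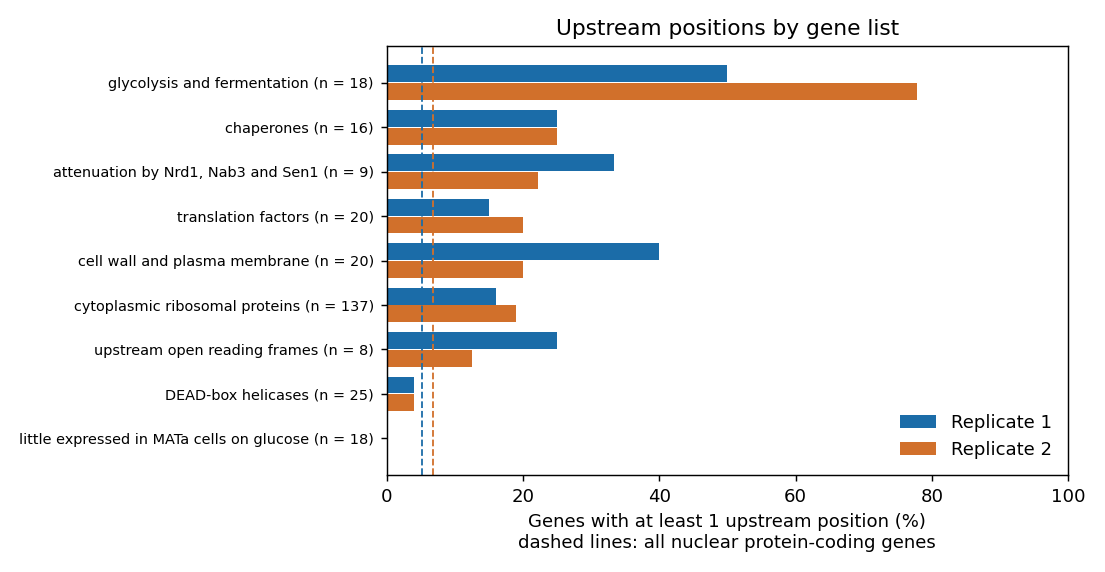
Percentage of the genes of each list (horizontal axis) with at least 1 upstream position in each replicate, with the number of genes of the list in brackets and dashed lines for all 5999 nuclear protein-coding genes (5.15% and 6.77%). Glycolysis and fermentation leads with 50% and 77.8%, and DEAD-box helicases have 4% in each replicate. Among genes with any listed position the shares are 11.4% and 10.7%, and these are not drawn.

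Translation factors and chaperones had a lower share of positions upstream than the 6.30% and 4.68% of all protein-coding positions. For chaperones the margin in replicate 1 was narrow. Of the 20 translation factor genes 3 and 4 had a member, or 15% and 20%, beside 5.15% and 6.77% of all genes. Listed positions were found in 18 and 20 of them, and among all listed genes 11.4% and 10.7% had a member. Of their positions, 1.94% of 155 and 2.91% of 653 were upstream. TEF1 and TEF2 encode the elongation factor eEF1A in the same protein sequence. TEF1 had 1 of 22 and 5 of 170 positions upstream, and TEF2 had 0 of 24 and 8 of 156, all of the latter within 14 nt of the start codon. HYP2, the translation factor eIF5A, had 0 of 5 and 5 of 12, led by an A at 41 nt with 49.1% in replicate 2. Of the 16 chaperone genes 4 had a member in each replicate, or 25%, also above the shares of all genes. Listed positions were found in 13 and 15 of the 16, to be set beside the shares of listed genes above. Of the chaperone positions, 6.10% of 82 and 1.03% of 390 were upstream. SSA1, an Hsp70, had 1 of 9 and 1 of 60, and its Hsp40 partner YDJ1 had 2 of 5 and 1 of 14.

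DEAD-box helicase genes had 1 member in each replicate over 25 genes, or 4%, below the 5.15% and 6.77% of all genes by a margin of less than 1 gene. Listed positions were found in 19 and 23 of the 25, and among all listed genes 11.4% and 10.7% had a member. The member in replicate 1 was in DHH1, an activator of decapping, at 169 nt, and that in replicate 2 was in DBP5, which acts in mRNA export, at 26 nt. DBP2 itself had 10 and 9 listed positions and none upstream. Of the 18 matched genes that are little expressed in MATa cells on glucose, 4 and 5 were listed and none had a member.

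Early termination by Nrd1, Nab3 and the helicase Sen1 acts close to transcript starts, and Sen1p is named beside Dbp2p in the title of the study. Of 9 genes listed for it, 3 had a member in replicate 1 and 2 in replicate 2, and 1 gene, HRP1, in both. These are 33.3%, 22.2% and 11.1% of a very short list, beside 5.15%, 6.77% and 1.08% of all genes, and 6 and 9 of the genes were listed at all. Among all genes with listed positions 11.4% and 10.7% had a member. HRP1 encodes a cleavage factor for mRNA 3′ ends. It had 1 of 4 positions upstream in replicate 1, a T at 127 nt with 16.7% of the signal. In replicate 2 it had 6 of 8, all in the run printed above, with 95.9% of the signal. The first nucleotide of the run, an A 159 nt before the start codon, held 57.1%. The last, a G at 154 nt, held 18.4%. PCF11, another cleavage factor, had a single listed position in replicate 1, an A at 57 nt, and 0 of 2 upstream in replicate 2. URA2 had 1 of 7 and 0 of 34, and IMD3 had 1 of 11 in replicate 2. Without HRP1, 2 genes in replicate 1 and 1 in replicate 2 remain, each with 1 position.

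Upstream reading frames are short frames in a leader that capture scanning ribosomes. Of 8 genes listed for them, 2 had a member in replicate 1 and 1 in replicate 2, or 25% and 12.5% of a very short list, beside 5.15% and 6.77% of all genes. Listed positions were found in 5 and 8 of the 8, and among all genes with listed positions 11.4% and 10.7% had a member. GCN4, the activator of amino acid synthesis whose leader holds several such frames, had 4 of 9 and 2 of 4 positions upstream, with 20% and 12.5% of its signal. They lay at 27, 42, 65 and 66 nt in replicate 1 and at 137 and 140 nt in replicate 2, so no nucleotide or cluster was shared. The 200 nt window covers only part of the GCN4 leader. HAP4, an activator of respiratory genes, had 2 of 4 and 0 of 5.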

How the data were processed

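The samples were 2 iCLIP libraries, used as 1 group. The authors deposited, per position, a value headed normalized counts, which tested as a fraction: the fractions of each gene sum to 1 within 1e-06 for 2787 of 2787 names in replicate 1 and 3873 of 3873 in replicate 2. Per the submitters' processing notes, CASAVA and TopHat were used with build sacCer3, and no version is named. Collapsing of repeated cDNAs, multiple mapping and any minimum are not described in those notes. The depth is unknown.

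Reading frames came from a RefSeq gene table of assembly R64, without introns, transcript starts or sequence. All 58 listed bases in start codons were those of ATG. Members, lists and tests were chosen with earlier results of these data known. Each replicate was computed on its own with Python 3.11.15, numpy 2.4.6, pandas 2.3.3 and scipy 1.17.1, and figures with matplotlib 3.10.9. Base shares and repeat listing were compared with Fisher's exact test, 2-sided, Benjamini-Hochberg adjusted over 8 and 2 tests, and called where both replicates passed 0.05 in 1 direction. Odds ratios have 0.5 added to each cell. Positions of 1 cluster are not independent, so these p-values can be too small. Code was tested on simulated positions.

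Genes named are those with a shared nucleotide, the 15 with the most members in the replicate with fewer, DBP2, and the 2 leading members of each list. The genes of the printed runs and other list members were added after their values were seen. In the list of little expressed genes 18 of 20 names matched.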

Additional observations from a re-analysis of the deposited data

How the results depend on the processing

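The alternatives were a window of 100 nt, leaving out positions inside another gene or with a fraction under 0.05, counting positions within 5 nt as 1, 1 position per gene and region, weighting by the fraction, wider limits for neighbours and shared nucleotides, and each replicate alone. Of 86 values under an alternative, 68 were classed as unchanged in direction, side of the threshold or size, and this class was wide for counts and shares. It took in the share of members with a listed neighbour, 37.2% on average but 18.8% and 55.5% in the single replicates. It also took in the genes with members in both replicates, which fell from 65 to 44 with 100 nt. With 100 nt the upstream density was 0.945 times that of reading frames, the median distance 31 nt, the share within 50 nt 72.2% and the mean upstream signal per gene 4.23%, as a narrower window implies, and the log2 odds ratio of T against reading frames turned to -0.0039, not called in either setting. Without fractions under 0.05, the share within 50 nt was 55.3%, the genes with members in both replicates fell to 38 and the repeat listing passed in both (mean log2 odds ratio 1.73), and the cause was not tested. With 5 nt allowed, shared nucleotides averaged 49.5 and the repeat listing passed in both replicates (mean log2 odds ratio 1.01, against 1.04 without this allowance). Why it passed was not tested. In each of these repeat listings the replicates view 1 overlap from each side, so a pass in both is not 2 independent results. Counted as 1 within 5 nt, 2 nucleotides were shared and the repeat listing turned to -0.39, with each cluster reduced to its strongest nucleotide. A against downstream positions no longer passed in both replicates without fractions under 0.05 (0.34), within 5 nt counted as 1 (0.38) and with 1 position per gene and region (0.39), each with fewer positions. T against downstream positions kept an unadjusted p under 0.05 in both replicates in every alternative run for it.

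With each replicate alone, the log2 odds ratio against reading frames ranged from -0.10 to 0.38 for T and from 0.022 to 0.49 for A. The depth of the libraries is not given, so a position listed in only 1 replicate is not shown to be absent from the other. No paired analysis was possible because the samples form 1 group.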

Other observations

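In 4 of the 65 genes with members in both replicates, more than 50% of the signal lay upstream in both. Beside PCL5 and RMI1, and singled out after their values were seen, these were LCB2, a subunit of the first enzyme of sphingolipid synthesis, with 100% and 60%, and VSB1, with 87.5% and 100%. The 100% of LCB2 in replicate 1 came from its only listed position, and in replicate 2 LCB2 had 3 of 5 positions upstream. The members of VSB1 were all T, at 162, 166 and 167 nt in replicate 1 and at 172 nt in replicate 2, where it was the only listed position. VMA5, a subunit of the vacuolar proton pump, had 33.3% in replicate 1, an A at 35 nt, and 69.8% in replicate 2, with 32.1% at 14 nt and 30.2% at 10 nt. Upstream positions were 1 of 3 and 5 of 9 in VMA5.

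Further clusters of replicate 2, also singled out after their values were seen, lay away from the start codon. CTR1, the copper transporter, had 65.2% of its signal in the run at 168 to 172 nt printed in the report. YRO2 had 25% at 143 nt and 5.56%, 5.56% and 2.78% at 140, 139 and 138 nt, the layout seen in ECM33. MSN2, a stress activator, had 44.4% at 63 nt, before its run at 57 to 61 nt. ACT1, the actin gene, had 8.06% at 61 nt, followed by 58, 57, 56 and 55 nt. In replicate 1 ACT1 had 1 upstream position, at 83 nt, and YRO2 had 1, at 14 nt.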
